A study of Arabidopsis thaliana with 5 samples.

Results

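The line CAMTA.1 was compared with its accession WS in whole Arabidopsis thaliana plants, on 1 array each. The pair was taken by label, as the array with ecotype WS and line CAMTA.1 and the WS array with no line named, and makes up 2 of the 5 arrays of the series. The series title concerns transcription factors that bind calmodulin, and the other 3 arrays were labelled Col-0 with no line, and the T-DNA insertion lines CAMTA.1.2 and CAMTA.6.2 in Col-0. All plants were whole plants at growth stage 1.04, grown on Gamborg medium at 18 degrees and 65% humidity with 16 h of light and 8 h of dark, and carried no treatment label. Nothing in the labels says whether plants were pooled.

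The WS array carried a stock number for the accession. For CAMTA.1 the labels gave the accession and the line name, without a stock number or a genetic modification, so which gene is altered in this line, and how, is not stated. CAMTA.1.2 and CAMTA.6.2 were labelled as third-generation plants transformed with the plasmid pROK2, and CAMTA.6.2 as segregating. The source names did not follow these labels. The CAMTA.1 array had KO3 in its source name, the WS array EX1 and the CAMTA.6.2 array WSC, so every direction given here rests on the characteristics, and with the labels of the pair exchanged every sign would turn. With 1 array a side there was no test and no replicate error, and the differences are sizes between 2 arrays.

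CAMTA proteins are transcription factors that bind DNA through a CG-1 domain and bind calmodulin, the calcium sensor of plant cells. Calcium enters the cytosol within moments of touch, cold or wounding, and CAMTA proteins are known in Arabidopsis for activating genes of the rapid stress response and of cold acclimation and for holding salicylate-dependent defence down. STZ (ZAT10), genes of calmodulin-like proteins and WRKY genes belong to the rapid response.

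The 2 arrays were alike in breadth and unlike in scanner background. Probe sets above the floor, an intensity of 18.1 under which values were not read, made up 60.7% of 8247 on the WS array and 60.2% on the CAMTA.1 array. The labels gave an average scanner background of 92.64 for the WS array, against 64.86 for CAMTA.1 and 60.73 to 75.57 for the other 3. The ubiquitin control had a 3'/5' ratio of 2.28 on WS and 3.32 on CAMTA.1, and GAPDH one of 1.38 and 1.29. On Col-0, CAMTA.1.2 and CAMTA.6.2 the ubiquitin ratio was 2.64, 2.68 and 3.57, and the GAPDH ratio 1.64, 1.94 and 1.78. Each of 9 spike-in control probe sets was higher on the CAMTA.1 array than on WS, by 0.12 to 1.10 on the log2 scale. Each was higher still on Col-0, with BioB-M at 38.6 on WS, 67.6 on CAMTA.1 and 121 on Col-0, so CAMTA.1 was not the highest array for them. The part of these technical differences in the results was not tested.

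The labels could be checked only in part. ECS1, a cell wall protein gene, was at 97.3 on the WS array and 39.1 on the CAMTA.1 array, and at 6832 on Col-0, 4865 on CAMTA.1.2 and 3545 on CAMTA.6.2. By this gene, both arrays labelled WS lay far below the 3 labelled Col-0. Of the 6 CAMTA genes, 2 were named by a probe set. CAMTA5 (AT4G16150) was at 19.5 on the WS array and 20.4 on the CAMTA.1 array, close to the floor, and CAMTA4 (AT1G67310) was under the floor on both. CAMTA1 (AT5G09410) was not analysed here, since no probe set named it, so the line was not checked on its own gene.

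Organ markers were present on both arrays. RCA, the Rubisco activase of leaves, was at 3631 on the WS array and 4167 on the CAMTA.1 array. The other leaf markers with a probe set were PRK, at 1003 and 869, and LHB1B2, at 398 and 1946, which was 4.89-fold higher. Of the 3 root peroxidase genes fixed as markers, AT5G17820 was at 192 and 255, AT3G01190 at 103 and 114, and AT4G26010 at 43.2 and 30.7. None of these 3 was 2-fold apart, and their median log2 difference was 0.14. The flower marker AT5G07230 was at 20.7 on WS and under the floor on CAMTA.1. In whole plants, fewer cells of a type and less RNA per cell cannot be told apart.

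Differences of 2-fold or more were counted. The CAMTA.1 array was higher at 199 probe sets and lower at 306, or 2.41% and 3.71% of all probe sets and 6.12% together. The larger differences were mostly on the lower side, with 12 probe sets higher and 68 lower at 4-fold, and 0 higher and 11 lower at 8-fold. Of the 505, 412 were above the floor on both arrays, and for the other 93 the fold is a bound. With the values as deposited, 25.8% of the different probe sets were higher, against 39.4% after scaling to the median. That scaling moved the median log2 difference of the probe sets above the floor on every array from 0.00 to 0.13.

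**Figure D1:**
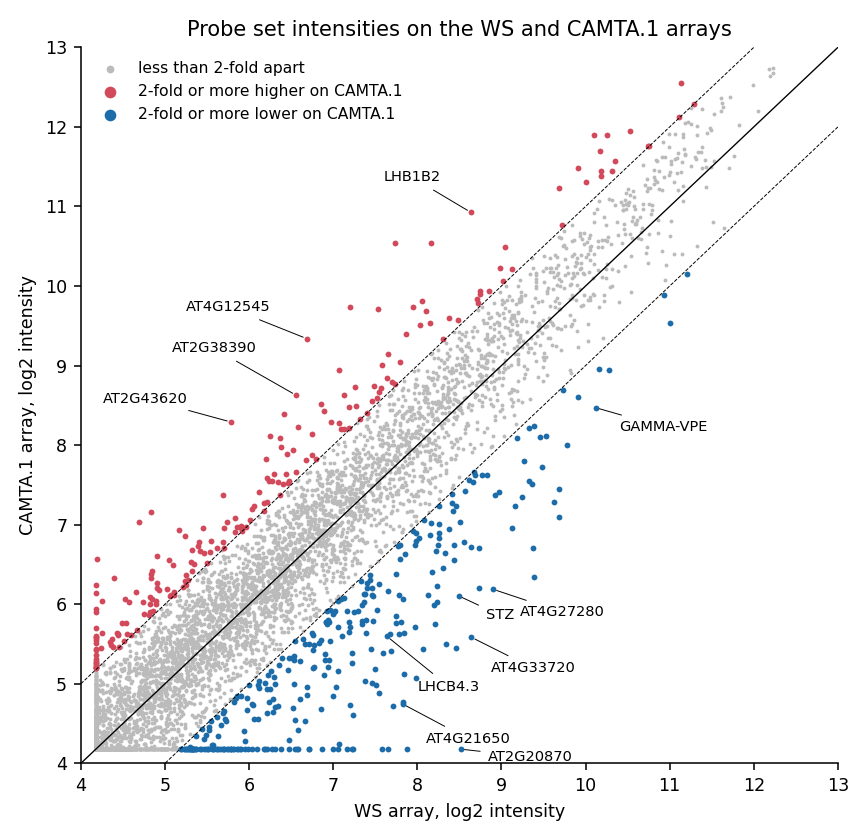
Log2 intensity of each of the 8247 probe sets on the WS array (x) and the CAMTA.1 array (y), with equality as a solid line and 2-fold as dashed lines. The 199 probe sets higher on CAMTA.1 are red and the 306 lower are blue, and the blue points reach farther from the line, AT2G20870 farthest among the labelled genes; values under the floor are drawn at it.

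Gene names were available for part of the array. Among the 3602 genes named by a probe set, 70 were higher and 95 lower on the CAMTA.1 array, which is 1.94% and 2.64%, or 4.58% together. Among the 2157 of these above the floor on either array the shares were 3.25% higher and 4.4% lower, and the median log2 difference was 0.10. These shares and this median are the background for each group of genes below. Every gene list used here was chosen with earlier results of these data known, also where a list is not marked as made after seeing the values. Probe sets without a gene name made up 118 of the 199 higher and 197 of the 306 lower, against 4383 of all 8247.

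Genes of the rapid stress response were low on the CAMTA.1 array. Of 48 such genes, listed with earlier results of these data known, 5 had a probe set that named them. Of these 5, 4 were at least 2-fold lower and none was 2-fold higher, with a median log2 difference of -1.77. STZ, a zinc finger repressor induced by cold, salt and wounding, had an intensity of 360.1 on the WS array, 68.8 on CAMTA.1, 423 on Col-0, 586 on CAMTA.1.2 and 129 on CAMTA.6.2. Its log2 difference between CAMTA.1 and WS was -2.39, and that of its second probe set -2.67. CAMTA.1 was the lowest of the 5 arrays for STZ, with CAMTA.6.2 next.

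AT4G27280, a gene of a calcium-binding protein with EF hands, was at 478 on WS, 72.9 on CAMTA.1, 565 on Col-0, 389.9 on CAMTA.1.2 and 197 on CAMTA.6.2, a log2 difference of -2.71. AT2G41090, a calmodulin-like gene, was at 288 on WS, 84.5 on CAMTA.1, 566 on Col-0, 132 on CAMTA.1.2 and 188 on CAMTA.6.2, a difference of -1.77. CAMTA.1 was again the lowest array for both genes. WRKY53, which regulates leaf senescence and defence genes, was at 43.2 on WS and under the floor on CAMTA.1, at least 2.38-fold lower. It was also at the floor on CAMTA.1.2 and CAMTA.6.2 and at 64.0 on Col-0. EXO, the fifth gene, was at 378 and 296, a log2 difference of -0.35.

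The calmodulin-like and EF-hand genes were listed as a family after the values had been seen. Of 52 genes, 10 had a probe set and 7 were above the floor on either array, of which 3 were lower and 1 was higher, with a median log2 difference of -0.99, and of -0.58 with the floor at the 30th percentile. AT4G27280 and AT2G41090 are counted here too. AT2G41410, a further calmodulin-like gene, was at 741 on WS and 276 on CAMTA.1, and at 971 on Col-0, 535 on CAMTA.1.2 and 303 on CAMTA.6.2. Its log2 difference was -1.42, and -0.90 at its second probe set. CML42 was the member that went the other way, at 44.1 on WS and 100.0 on CAMTA.1, a difference of 1.18. CML41, at 40.5 and 20.4, and CML30, at 41.0 and 53.8, were less than 2-fold apart. None of the 7 calmodulin genes was named by a probe set.

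Among WRKY factors found by name, WRKY53 was the 1 of 7 above the floor that was 2-fold apart, and the median log2 difference was -0.52. WRKY22 was higher by 0.83, while WRKY6 and ZAP1 differed by -0.56 and -0.52. SAG29, a senescence-associated sugar transporter gene, was at 39.7 on the WS array and at the floor on CAMTA.1, at least 2.19-fold lower. WRKY53 and SAG29 were the 2 of 10 listed senescence genes that had a probe set. THI2.1, a jasmonate-induced antimicrobial thionin, was at 83.4 on WS and at the floor on CAMTA.1, at least 4.61-fold lower, while the log2 differences of its 3 probe sets lay between -2.20 and 0.24. It was the 1 gene of 21 in the jasmonate list with a probe set, and none of 22 salicylate defence genes had one.

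Cold and abscisic acid genes lay near the background. Of 33 listed, 6 had a probe set, and 5 of them were less than 2-fold apart, with a median log2 difference of 0.20. The cold-induced genes KIN2, LTI30, COR47 and COR15B differed by 0.54, 0.65, 0.08 and -0.11. The exception was HIS1-3, a linker histone gene induced by drought, which was at 130.3 on WS and 60.2 on CAMTA.1, a difference of -1.11. The clock gene GI, the 1 of 23 clock genes with a probe set, was at 122 and 160.5, a difference of 0.40.

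**Figure D2:**
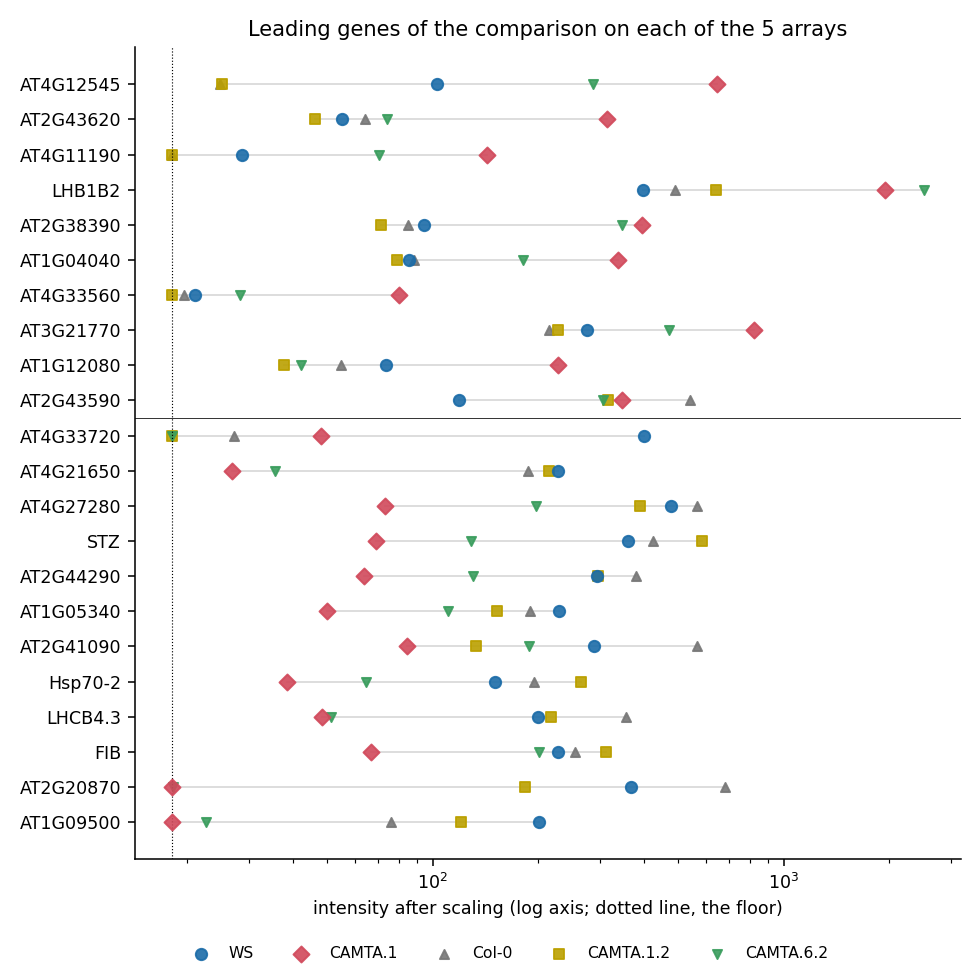
Scaled intensity (log axis) of 22 genes on each of the 5 arrays, 10 higher on CAMTA.1 above the line and 12 lower below it, with values under the floor drawn at the dotted line. For STZ and AT4G27280 the CAMTA.1 array is lowest and CAMTA.6.2 next; for AT4G33720 the WS array alone is high, and for AT2G43590 the WS array alone is low.

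Heat shock protein genes, which encode chaperones, were low as well. Of 36 heat shock protein genes, a list made after the values had been seen, 8 had a probe set and 5 were above the floor, and all 5 of these were at least 2-fold lower on the CAMTA.1 array, with a median log2 difference of -1.32. Hsp70-2, a cytosolic chaperone, was at 150.0 on WS, 38.4 on CAMTA.1, 195 on Col-0, 264 on CAMTA.1.2 and 64.6 on CAMTA.6.2, a difference of -1.97. AT3G09440, a further member of the HSP70 family, was at 1139 and 499, a difference of -1.19, but of -0.40 at its second probe set. Near-identical HSP70 copies may share signal in these probe sets. The small heat shock protein genes AT2G19310 and AT1G59860 were 2.82-fold and 2.49-fold lower. AT2G29500, at 40.1 on WS and under the floor on CAMTA.1, was at least 2.21-fold lower. Hsp70-2 and AT2G19310 stayed past 2-fold under every processing tried, and AT3G09440, AT1G59860 and AT2G29500 did not. A search of gene names for heat shock or chaperone words found 3 genes above the floor, Hsp70-2, BRK1 and CCS. BRK1 and CCS are not in the heat shock protein list, and differed by -0.31 and 0.01.

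Families of secreted proteins differed in both directions. Among the subtilases, serine proteases of the cell wall, 4 of 9 above the floor were lower and none was higher, in a list of 54 made after the values had been seen. AT4G21650 was at 227 on WS, 26.8 on CAMTA.1, 187 on Col-0, 215 on CAMTA.1.2 and 35.4 on CAMTA.6.2, a log2 difference of -3.08. Its neighbours by locus AT4G21640 and AT4G21630 were also lower, by -1.53 and, as a bound, at least 2.21-fold. All 3 are read from family probe sets, which near-identical copies may share, so they may not be separate. AT2G39850 differed by -2.17. The other 5 subtilases, among them ARA12 at 0.31 and AT2G05920 at 0.27, did not reach 2-fold. The 9 had a median of -0.20, which was 0.09 with the floor at the 30th percentile and 0.27 among probe sets at 100 or more.

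Class III peroxidases use hydrogen peroxide to cross-link wall polymers, and 46 of 73 listed after the values had been seen had a probe set. Of 37 above the floor, 3 were higher and 1 was lower, with a median log2 difference of 0.18. AT2G38390 was at 94.2 on WS, 396 on CAMTA.1, 85.2 on Col-0, 71.1 on CAMTA.1.2 and 347 on CAMTA.6.2, a difference of 2.07. AT3G21770 was at 275 on WS, 825 on CAMTA.1, 215 on Col-0, 227 on CAMTA.1.2 and 471 on CAMTA.6.2, a difference of 1.59 and of 1.64 at its second probe set. For both genes CAMTA.1 was the highest array and CAMTA.6.2 next. AT2G38380, a neighbour of AT2G38390 by locus, was at 505 and 1199, a difference of 1.25. AT5G19890 was lower, at 133 on WS and 35.6 on CAMTA.1, and at 72.5 on Col-0 and at the floor on both other lines.

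Chitinases, which cut the chitin of fungal walls, were split. Of 16 with a probe set among 24 listed after the values had been seen, 5 were above the floor, 2 higher and 1 lower, with a median log2 difference of 0.00. AT2G43620 was at 55.1 on WS, 313 on CAMTA.1, 64.1 on Col-0, 46.1 on CAMTA.1.2 and 74.1 on CAMTA.6.2, a difference of 2.51, and CAMTA.1 stood above every other array. For AT2G43590 it was the WS array that stood apart, at 118 against 346 on CAMTA.1, 540.3 on Col-0, 316 on CAMTA.1.2 and 305 on CAMTA.6.2. CHI was at 51.8 on WS and at the floor on CAMTA.1, at least 2.86-fold lower, and AT2G43610 was at 497 and 499.

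Genes of the lipid transfer protein family, small secreted proteins that carry lipids, had a median log2 difference of 0.90, and of 0.60 with quantile normalization. Of 60 listed after the values had been seen, 12 had a probe set and 9 were above the floor, 4 higher and 1 lower. AT4G12545 was at 103 on WS, 647 on CAMTA.1, 24.7 on Col-0, 25.2 on CAMTA.1.2 and 286 on CAMTA.6.2, a log2 difference of 2.65, the largest among named genes on the higher side. AT1G62510 was at 76.2 and 278, and at 552 on CAMTA.6.2, and AT4G22610 was at 42.7 and 102. AT2G45180 was at 2207 and 4470, just past 2-fold, and its second probe set differed by 0.76 in log2. AT4G22610 and AT2G45180 did not stay past 2-fold under every processing tried. AT2G44290 was the lower gene, at 293.5 on WS, 63.8 on CAMTA.1 and 130.2 on CAMTA.6.2, a difference of -2.20.

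**Figure D3:**
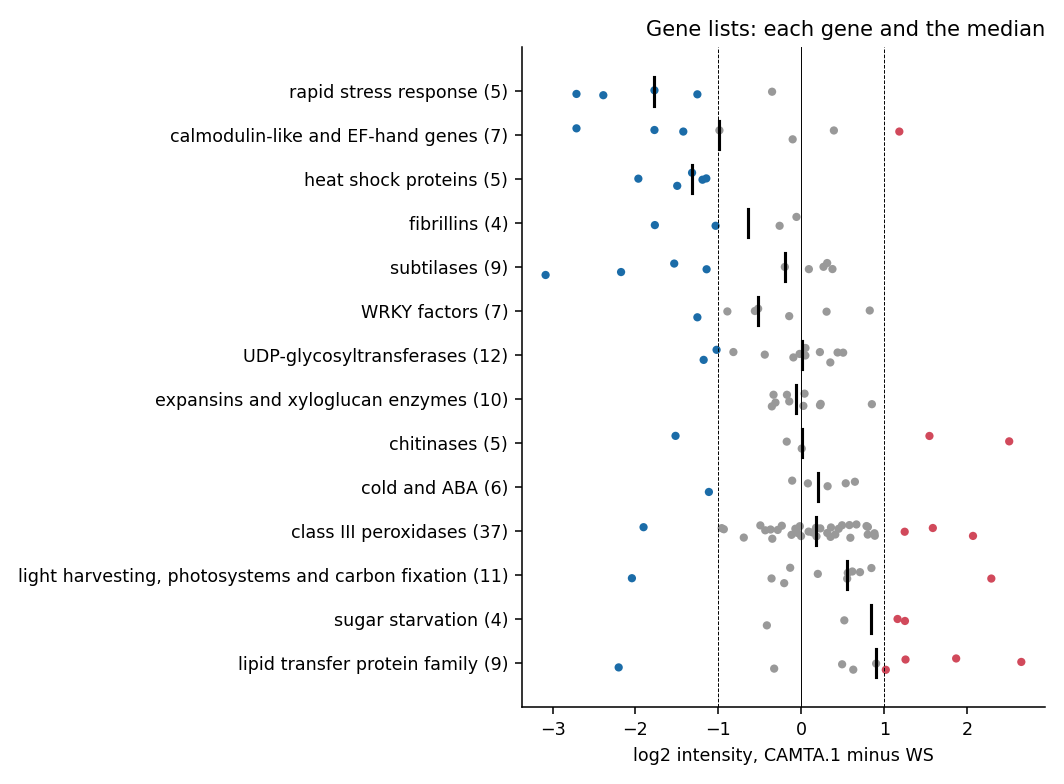
Log2 difference between CAMTA.1 and WS for each gene of 14 lists above the floor on either array (points, number in brackets; spread vertically only to show them), with list medians as black bars and 2-fold as dashed lines. The median is -1.77 for rapid stress genes and 0.90 for lipid transfer proteins, against 0.10 for all 2157 genes.

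Photosynthesis genes were slightly higher on the CAMTA.1 array on the reported scale, with a median log2 difference of 0.55 over 11 genes of 66 listed after the values had been seen, and of 0.01 with quantile normalization. LHB1B2, a light-harvesting chlorophyll protein of photosystem II, was at 398 on WS, 1946 on CAMTA.1, 489 on Col-0, 640.1 on CAMTA.1.2 and 2502 on CAMTA.6.2, a difference of 2.29. Near-identical copies of this gene may share its signal. LHCB4.3, of the same family, went the other way, at 199 on WS, 48.4 on CAMTA.1, 356 on Col-0, 218 on CAMTA.1.2 and 51.1 on CAMTA.6.2, a difference of -2.04. For both genes the CAMTA.1 and CAMTA.6.2 arrays were on one side and the other 3 on the other.

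The other 9 photosynthesis genes were less than 2-fold apart at the probe set that stood for the gene. For PSAE-1 the log2 differences of its 3 probe sets lay between 0.77 and 1.25. The photosystem genes PSAE-1, PSAN, PSBY and PSBW and the antenna gene LHCB4.1 were higher by 0.84, 0.71, 0.56, 0.55 and 0.61, and RCA by 0.20. The carbon fixation genes PRK and SBPASE differed by -0.21 and -0.36, and the phosphoglycerate kinase gene AT1G56190 by -0.13. Over the 3 leaf markers the median was 0.20, and -0.40 with quantile normalization. PORB, an enzyme of chlorophyll synthesis, was 2.30-fold higher, with 459 on CAMTA.1 and 995 on CAMTA.6.2. Fibrillins, lipid-binding proteins of plastids, were lower or near equal. FIB was at 227 on WS, 66.7 on CAMTA.1, 255 on Col-0, 311 on CAMTA.1.2 and 201 on CAMTA.6.2, AT4G22240 was at 218 and 106.5, and the other 2 of 4 were less than 2-fold apart, in a list made after the values had been seen.

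Brightness moved with these values. Over 241 probe sets with a mean intensity above 1000, the median log2 difference was 0.44, with 17 higher and 3 lower at 2-fold. Over 1527 probe sets between the floor and 50 it was 0.05, with 44 higher and 47 lower. Quantile normalization brought the median of the brightest to 0.02. Most photosystem genes above lie among the brightest probe sets, and the part of brightness in their values was not tested.

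**Figure D4:**
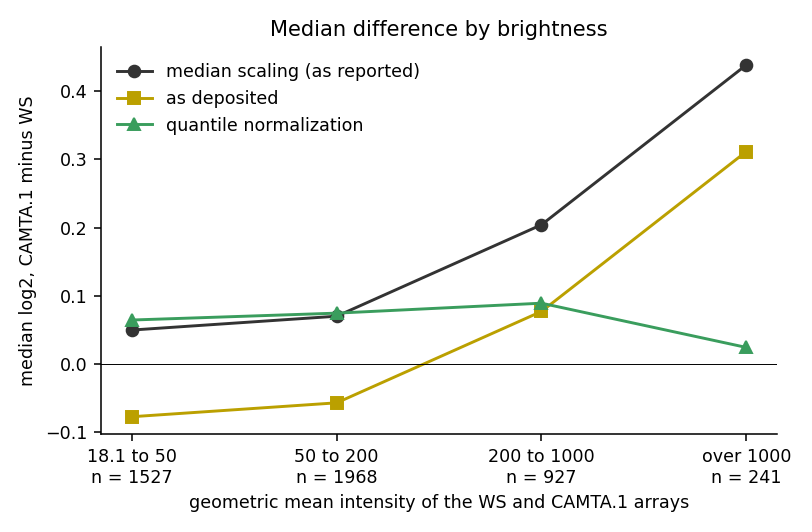
Median log2 difference between CAMTA.1 and WS (y) by geometric mean intensity of both arrays (x, with the number of probe sets), under 3 scalings. Under median scaling the median goes from 0.05 in the dimmest group to 0.44 in the brightest, and under quantile normalization it stays between 0.02 and 0.09.

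Sugar starvation genes, which are induced when carbon runs short, had 4 of 22 with a probe set, of which 2 were higher and none lower, with a median log2 difference of 0.84. AT1G54740 was at 56.9 on WS, 135 on CAMTA.1, 39.8 on Col-0, 29.2 on CAMTA.1.2 and 199 on CAMTA.6.2. MCCA, of leucine breakdown, was at 40.6 on WS, 90.8 on CAMTA.1, 33.4 on Col-0, 23.5 on CAMTA.1.2 and 194 on CAMTA.6.2. Both were highest on CAMTA.6.2 and next highest on CAMTA.1. MCCB, the partner subunit of MCCA, differed by 0.52, and AT2G20670 by -0.42.

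Transporters and sugar-conjugating enzymes included lower genes. AT3G21670 (NPF6.4), a nitrate transporter gene, was at 144 on WS and 145 on CAMTA.1.2, 93.3 on Col-0, 18.7 on CAMTA.6.2 and under the floor on CAMTA.1, at least 7.95-fold lower. GTR1, a glucosinolate transporter gene, was at 129 and 59.6. These were 2 of 4 transporter genes found by name above the floor. Of 12 UDP-glycosyltransferases, IAGLU, which conjugates auxin to glucose, was at 247 and 121.5 and GT72B1 at 124 and 54.7, both just past 2-fold, none was 2-fold higher, and the median was 0.01. None of 10 expansins and xyloglucan enzymes, which loosen cell walls, was 2-fold apart, with differences from -0.36 to 0.85. Nor was any of 3 glutathione S-transferases or 3 cytochrome P450 genes, with medians of -0.77 and -0.63. Of 3 histone genes only HIS1-3 was 2-fold apart.

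Among named genes outside these lists, the largest difference on the lower side was a bound. AT2G20870, a cell wall protein gene, was at 366 on WS, under the floor on CAMTA.1, and at 681 on Col-0, 184 on CAMTA.1.2 and 18.2 on CAMTA.6.2, at least 20.2-fold lower, with a log2 bound of -3.70 at its second probe set. AT1G09500, of the cinnamyl alcohol dehydrogenase family, was at 201 and under the floor, at least 11.1-fold lower. AT1G70000, a MYB-like gene, and ATSPS4F, a sucrose-phosphate synthase gene, were at least 5.30-fold and 4.92-fold lower. For each of these 4 genes, CAMTA.6.2 was the next lowest array or also at the floor.

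Measured on both arrays, AT1G05340 was at 229 on WS, 50.0 on CAMTA.1, 189 on Col-0, 152 on CAMTA.1.2 and 110.4 on CAMTA.6.2. AT1G14200, a RING finger gene, was at 131 and 31.1, AT4G17840 at 425 and 105, AT4G01870 at 302 and 74.8, AT1G75280, of the isoflavone reductase family, at 279 and 69.3, and AT1G04350, a dioxygenase family gene, at 346 and 93.8. Their log2 differences lay between -2.20 and -1.88. Of genes singled out after their values were seen, GAMMA-VPE, a vacuolar processing protease, was at 1113 and 355, the C2-domain gene SRC2 at 617 and 223, and UPB1, a repressor of peroxidase genes in roots, at 54.6 on WS and under the floor on CAMTA.1.

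On the higher side, AT4G11190, a dirigent-like gene, was at 28.6 on WS, 143 on CAMTA.1 and 70.1 on CAMTA.6.2 and at the floor on the other 2. AT1G04040, an acid phosphatase family gene, was at 85.4 and 336, AT4G33560, a wound-responsive family gene, at 21.1 and 80.1, and AT4G29020, a glycine-rich protein gene, at 267 and 898. Their log2 differences were 2.32, 1.98, 1.93 and 1.75. AT4G23820, AT4G28780, AT1G12080, AT4G14020 and AT4G26810 were higher by 1.77, 1.70, 1.63, 1.61 and 1.55. Of 6 bounds on this side, AT2G40960 was the largest, at least 3.40-fold higher, and the bounds of AT4G33380, AT2G32200, AT1G12020, AT2G42040 and AT4G32290 lay between 2.15-fold and 2.65-fold.

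A further 5 genes were singled out on the higher side after their values were seen. STOMAGEN, a peptide that promotes stomata, was at 102 and 225, YAB3, a regulator of leaf polarity, at 53.2 and 131, SKU5, of directional root growth, at 108 and 282, TUB5, a tubulin, at 86.9 and 199, and WLIM1, an actin-binding protein, at 78.4 and 199.6. On CAMTA.6.2 YAB3, SKU5 and TUB5 were at 132, 309.7 and 225, close to CAMTA.1 or above it, and STOMAGEN and WLIM1 were lower, at 121 and 111. The probe sets of YAB3 above the floor differed by 1.30 and 1.52 in log2, and its other probe set was under the floor on every array. With that probe set counted at the floor, the mean over all 3 was 0.94. The largest differences without a gene name were probe set 15170_s_at, at 212 and 1494.8, and 19121_at, at 147 and 851, on the higher side, and 12876_at, at 227 and 27.4, and 18003_at, at 671 and 81.0, on the lower side.

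Several probe sets of a gene mostly had differences of the same sign, though not of the same size. Of the 165 genes 2-fold apart, 22 had more than 1 probe set. Of their 24 other probe sets above the floor, 14 were 2-fold apart the same way, 9 had the same sign below 2-fold, and 1, of THI2.1, had the opposite sign. The 9 included little or no difference at the other probe set of AT1G30700, AT1G09660 and AT1G22750, with log2 values of -0.005, 0.02 and -0.20.

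The WS array enters every difference here, so probe sets at which it stood alone were counted. It was at least 2-fold above each of the 4 other arrays at 14 probe sets and below each at 12, together 0.315% of all. The genes named among them were 4. AT4G33720, of the PR-1-like family of secreted defence proteins, was at 400.0 on WS, 48.0 on CAMTA.1, 27.1 on Col-0 and at the floor on CAMTA.1.2 and CAMTA.6.2, and its second probe set stood apart too. AT2G43590, with both probe sets, AT2G45250 and AT2G32200 were low on the WS array alone, AT2G45250 at 20.5 against 44.9 to 51.5. For these genes the comparison gives the position of the WS array against all others.

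The CAMTA.1 array stood alone at more probe sets than WS, 16 above and 31 below each of the other 4, together 0.57%, against 24 and 1 for Col-0, 4 and 16 for CAMTA.1.2, and 67 and 27 for CAMTA.6.2. The genes named among them were 20. Those lowest on CAMTA.1 included AT4G27280, 1 probe set of STZ, AT2G44290, AT1G05340, AT4G01870 and FIB. They also included AT4G34150, a C2-domain gene, at 19.5 against 53.3 to 102, and AT4G22820 at 107 against 218 to 325. For AT1G22750, 1 of 2 probe sets was at 151 against 306 to 495, and the other was at 54.9, with 63.1 on WS. AT1G10690 and 1 of 4 probe sets of AT2G24280 were the others, beside ECS1. Those highest included AT4G12545, AT2G43620, AT4G11190, AT4G33560, AT2G40960 and 1 probe set of AT3G21770. AT1G12080 was at 227 against 37.6 to 73.5 and MSRB9, a methionine sulfoxide reductase gene, at 54.5 against 20.6 to 23.1. At 433 of the 505 probe sets 2-fold apart, neither array stood alone.

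The 3 arrays of the other accession were therefore placed between the pair, each counted as nearer the array from which its log2 value differed less. Col-0 and CAMTA.1.2 were nearer WS at most probe sets, and CAMTA.6.2 nearer CAMTA.1. Of the 306 lower probe sets, Col-0 was nearer CAMTA.1 at 60 (19.6%), CAMTA.1.2 at 87 (28.4%) and CAMTA.6.2 at 233 (76.1%). Of the 199 higher, the counts were 49, 67 and 139, the last being 69.8%. CAMTA.6.2 alone of the 3 was nearer CAMTA.1 at 154 lower and 77 higher probe sets, all 3 were at 33 and 30, and none was at 46 and 43. These counts describe 3 arrays that share no sample with the pair. They were not tested, and CAMTA.6.2 differs from CAMTA.1 in accession and line name. The ubiquitin 3'/5' ratio was also highest on CAMTA.6.2 and CAMTA.1, at 3.57 and 3.32, against 2.28 to 2.68 on the other arrays. The GAPDH ratio did not split the arrays this way, and the part of RNA quality or labelling in these counts was not tested.

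**Figure D5:**
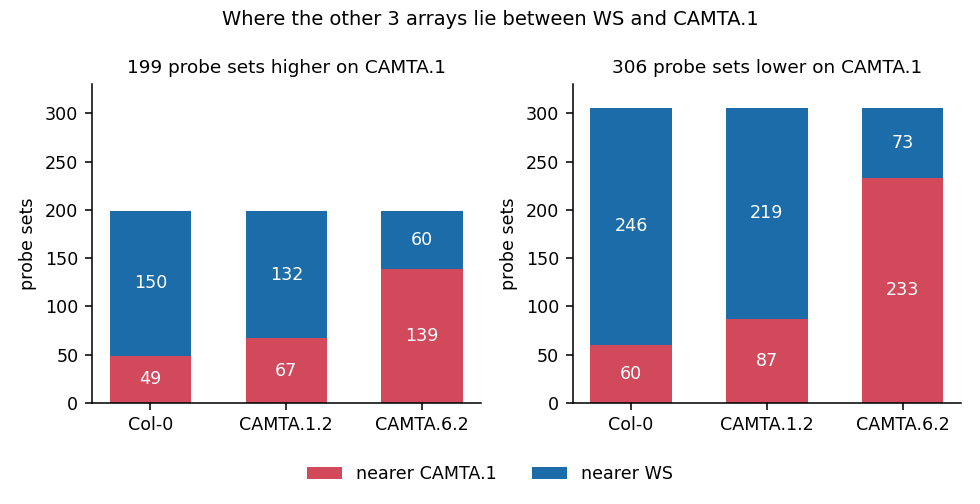
Number of the probe sets higher (left, 199) or lower (right, 306) on CAMTA.1 than on WS at which each of the other 3 arrays was nearer CAMTA.1 (red) or nearer WS (blue). CAMTA.6.2 is nearer CAMTA.1 at 139 and 233, and Col-0 nearer WS at 150 and 246.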

How the data were processed

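The authors deposited linear intensity values of 1-colour Affymetrix Arabidopsis Genome arrays hybridised with biotin-labelled cRNA from TRIzol-extracted RNA, per the labels. Trimmed means (2%) lay close to 100 on every array, so the authors had brought the arrays to a common level. How probes were summarised is not stated in the sources used.

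From 8297 probe sets, 50 controls were left out. Arrays were scaled by their median log2 value over 4245 probe sets that exceeded the floor everywhere. The floor was the 40th percentile of all values, and lower values were then set to it before log2 differences were taken. With 1 array a group there was no test, and the number of arrays limits precision. The steps were tested on simulated data.

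The platform annotation gave 3794 probe sets 1 gene, 70 several and 4383 none, with symbols from the reference table of assembly TAIR10.1. The probe set with the highest mean signal stood for a gene. Named genes were on either side the 15 largest differences and 6 largest bounds, list members at 2-fold with up to 4 further examples, and genes at which either array stood apart. Members and lists were chosen with earlier results of these data known. Families were also searched by words in gene symbols, and those with under 3 genes above the floor, or covered by a list of loci, are not described. No probe set named a gene of the reference or seed marker lists. Python 3.11.15, numpy 2.4.6, pandas 2.3.3 and matplotlib 3.10.9 were used.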

Additional observations from a re-analysis of the deposited data

Results flagged for a closer look

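HIS1-3 and AT4G14020 differed in opposite directions in CAMTA.1 and CAMTA.1.2. HIS1-3 differed by -1.1148 in log2 between CAMTA.1 and WS, but was at 268.9 on CAMTA.1.2 against 82.7 on Col-0. AT4G14020 differed by 1.6144 between CAMTA.1 and WS, with 37.8 on WS and 116 on CAMTA.1, but was at 53.1 on CAMTA.1.2 against 135.5 on Col-0. Each side is 1 array, the difference was not tested, and the labels do not state that the lines alter the same gene. Among the control probe sets, which enter no comparison, that of 5S rRNA was at 283.5 on the CAMTA.1 array, against 55.8 on WS, 79.3 on Col-0, 100.2 on CAMTA.1.2 and 104 on CAMTA.6.2.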

How the results depend on the processing

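The count of higher probe sets went from 199 to 131 with the values as deposited, 114 with log2(value + 20) and no floor, and 123 among probe sets at 100 or more on either array. The count of lower ones went from 306 to 184 under that filter. Probe sets at which the WS array stood alone went from 26 to 44 with the floor at the 30th percentile, 13 with no floor and 14 under the filter, and those of CAMTA.1 from 47 to 22 with no floor. The filter, which leaves fewer genes, also moved the medians of calmodulin-like genes to -1.60, of chitinases to 1.54, of UDP-glycosyltransferases to -0.92, of glutathione S-transferases from -0.77 to -0.25, of sugar starvation genes from 0.84 to 0.42 and of subtilases from -0.20 to 0.27. The median of calmodulin-like genes was -0.58 with the floor at the 30th percentile and with no floor. Quantile normalization moved that of the leaf markers to -0.40. The filter also moved fibrillins to -1.03, peroxidases to 0.45 and the cold and ABA genes to 0.08, and the mean over probe sets moved WRKY factors to -0.25. Of the 74 genes at 2-fold that the naming rule took, which leaves out those singled out by value, 47 stayed past it under all 6 alternatives for genes, and none changed direction. No floor lost 21 and the floor at the 50th percentile 13. WRKY53, HIS1-3, CHI, CML42, MCCA, AT3G09440, SAG29, IAGLU, GT72B1 and GTR1 were among those lost under at least 1. Also lost were the heat shock genes AT1G59860 and AT2G29500, the subtilases AT4G21640 and AT4G21630, the lipid transfer genes AT2G45180 and AT4G22610, and the fibrillin AT4G22240. Without the probe sets at which WS stood alone, 187 were higher and 292 lower. No paired analysis was possible because each group had 1 array.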

Other observations

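Control probe sets of the array, which enter no comparison, differed between the pair. The GAPDH controls were 2.38-fold lower at the 3' end and 2.22-fold lower at the 5' end on the CAMTA.1 array, with 1521 against 639 at the 3' end, and 1.36-fold lower in the middle. The actin 3' control differed by -0.18 and the ubiquitin 3' control by 0.35 in log2.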
